A study of Mus musculus with 6 samples.

Results

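The FGF homologous factors (FHFs) and the voltage-gated sodium channel subunits of retinal ganglion cells (RGCs) were examined on 6 Affymetrix mouse genome arrays. The genes were Fgf11, Fgf12, Fgf13 and Fgf14, which encode the FHFs, Scn3a and Scn8a, which encode pore-forming alpha subunits, and Scn2b and Scn3b, which encode beta subunits. Every probe set, a group of short probes summarized as 1 value, that the array annotation pairs with exactly 1 of these 8 symbols was taken, whatever its value. This gave 23 of the 45037 probe sets that are not controls, and 8 of 18193 genes. Fgf11, Fgf13, Scn3a and Scn3b each had 2 probe sets, Fgf12 and Scn2b had 3, Fgf14 had 4 and Scn8a had 5.

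The arrays held 3 samples of ipsilateral RGCs, whose axons stay on the side of their own eye, and 3 of contralateral RGCs, whose axons cross the midline at the optic chiasm. All came from wild-type C57BL/6J embryos at E16.5, written as E16 in the sample titles. In each of 3 rounds a tetramethylrhodamine dextran was laid on the cut optic tract and left for 2 h to travel back to the cell bodies, retinas of 2 litters were pooled by side, and rhodamine-positive cells without DAPI, a dye of dead cells, were sorted by FACS. A round thus gave 1 array of each side, a sample is a pool of embryos and not 1 animal, and the rounds put on arrays were those with high Zic2 in the ipsilateral sample by quantitative PCR.

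FHFs have the fold of fibroblast growth factors but stay inside the cell, where they bind the cytoplasmic tail of sodium channel alpha subunits and shift the voltage at which the channels inactivate. Each FHF gene has alternative first exons and so makes several isoforms, some of which also hold back channels during repeated firing. Alpha subunits form the pore through which sodium enters in an action potential. Scn3a is mostly an embryonic channel, Scn8a becomes the main channel of the axon initial segment and of nodes in mature neurons, RGCs included, and beta subunits alter gating and carry an immunoglobulin domain through which they adhere to other proteins.

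All 23 probe sets lay above the filter level, a mean log2 intensity of 4.74 over the 6 arrays, and were tested among 36029 probe sets. The lowest, Scn8a 1442208_at, had a mean of 4.86, just above that level. A stricter filter, at the 50th percentile, kept 18 of the 23. It left out this probe set, Fgf14 1447480_at, Scn3a 1421705_at, and Scn2b 1436134_at and 1457144_at. A difference is the ipsilateral log2 value less the contralateral one, so a negative value is a higher level in contralateral RGCs. The level is the log2 intensity of a probe set, and levels of different probe sets are not set against each other, because probes differ in how well they bind. A call required a change of at least 2-fold and a Benjamini-Hochberg adjusted p under 0.05 from limma over all probe sets tested. Unless pairing by round is named, errors, intervals and p values ignore that the 2 arrays of a round are a pair.

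Of the 23 probe sets, 0 were called in either direction, against 0.244% of all probe sets, each of which was higher in ipsilateral RGCs (88 probe sets). Of the 23, 21 had a lower mean in ipsilateral RGCs, where 52.7% of all probe sets did. Markers of RGCs were lower in the same samples, and with arrays centred on those markers 8 of 23 were lower. Of the 23, 12 had the lower value on the ipsilateral array of all 3 rounds (19.7% of all probe sets) and 0 were higher in all 3 (16.7%). At an unadjusted p under 0.05, limma had 2 of 23 higher in contralateral RGCs (0.38% of all) and 0 higher in ipsilateral RGCs (2.28%). Both were probe sets of Fgf12. The exceptions to the lower means were 2 of the 4 probe sets of Fgf14, of which 1447480_at did not pass the stricter filter. With the ipsilateral array of round 1 left out, 15 had the lower mean, and with the contralateral array of round 2 left out, 12 did. With any other array left out, 19 to 22 did. Leaving out 1 array breaks a pair, so these counts take in the gap between rounds.

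**Figure D1:**
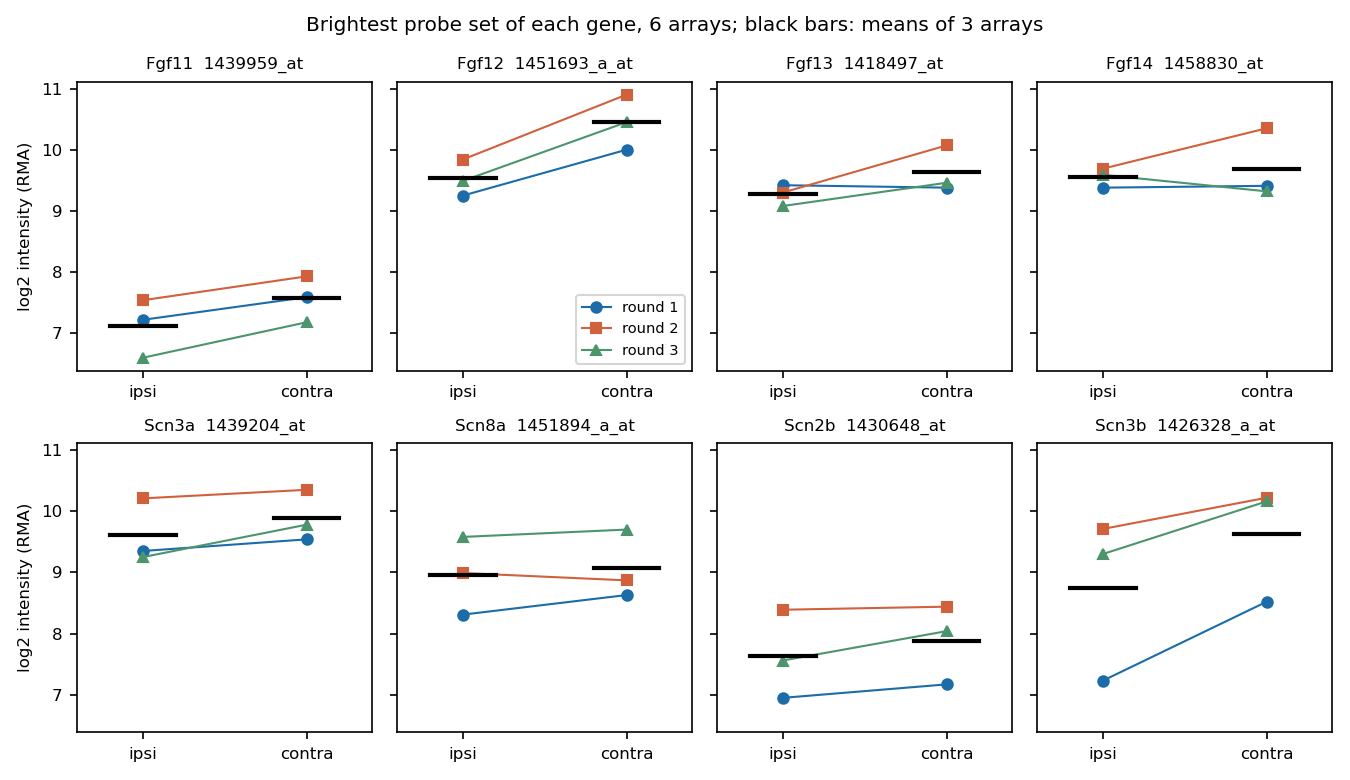
Log2 intensity of the brightest probe set of each of the 8 genes (vertical axis) in ipsilateral (ipsi) and contralateral (contra) RGCs. Points are arrays, lines connect the pair of arrays from 1 round, and a black bar is the mean of a side. All 3 lines rise towards the contralateral side for Fgf11, Fgf12, Scn3a, Scn2b and Scn3b. Only for Fgf12 do all 3 ipsilateral points (9.25 to 9.84) lie under all 3 contralateral points (10.00 to 10.90). The vertical scale is shared, but levels of different genes are not comparable.

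Fgf12, an FHF of the nervous system and heart, had the 2 largest differences among the 23, both with the higher level in contralateral RGCs. Its brightest probe set, 1451693_a_at, read 9.25, 9.84 and 9.49 in ipsilateral RGCs and 10.00, 10.90 and 10.45 in contralateral RGCs of rounds 1 to 3. Every ipsilateral array lay under every contralateral one. The ipsilateral mean was 9.53 ± 0.29 (SD, n = 3) and the contralateral mean 10.45 ± 0.45 (SD, n = 3). The difference was -0.92 (SE 0.41, 95% interval -1.81 to -0.04), which is 1.90-fold, with an unadjusted p of 0.0415 and an adjusted p of 1 from limma. Among all 15346 genes at their brightest probe set, 67, or 0.437%, had a lower difference.

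The second probe set of Fgf12, 1440270_at, read 7.12, 7.40 and 7.34 in ipsilateral and 8.05, 8.48 and 8.57 in contralateral RGCs, again with no overlap between the sides. The difference was -1.08 (SE 0.39, 95% interval -1.91 to -0.25), or 2.11-fold, the only one of the 23 past 2-fold, with an unadjusted p of 0.0149 and an adjusted p of 1 from limma. This probe set is on a list of genes that the study chose on these same samples, so its direction is not independent evidence. It was called when limma weighted the arrays by their estimated quality (-1.20, adjusted p 0.0017), an estimate that did not converge. The third, 1436432_at, read 5.93, 7.14 and 6.08 in ipsilateral and 6.52, 7.61 and 7.13 in contralateral RGCs. Its ipsilateral array of round 2 lay above the contralateral arrays of rounds 1 and 3, so the sides overlapped, and the difference was -0.70 (SE 0.46).

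Within a round, the 3 probe sets of Fgf12 gave the same sign 9 times of 9. The differences were -0.75, -1.07 and -0.96 at 1451693_a_at in rounds 1 to 3, -0.93, -1.08 and -1.23 at 1440270_at, and -0.59, -0.47 and -1.05 at 1436432_at. The 3 probe sets read the same samples and are not replicates of each other. Over all 23 probe sets, 2 had every ipsilateral array under every contralateral array, both of Fgf12, against 2.03% of all probe sets. Of the 14 RGC marker genes, each at its brightest probe set, 6 did so. With 3 arrays on each side, an exact permutation test of 1 probe set cannot go below p = 0.10.

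Fgf12 has 4 annotated transcription start sites in RefSeq on the minus strand of chromosome 16 (GRCm38.p6), and the probe set identifiers do not say which start a signal comes from. The promoter window of 1 of them, from 250 bases before to 50 bases after the start, is shown because it alone among the 13 windows found for these genes holds the octamer ATGCAAAT, a sequence bound by POU domain transcription factors. Capitals mark the octamer, which begins at base 247 of the window and spans the start site.
Fgf12, chr16:28753194-28753493, minus strand: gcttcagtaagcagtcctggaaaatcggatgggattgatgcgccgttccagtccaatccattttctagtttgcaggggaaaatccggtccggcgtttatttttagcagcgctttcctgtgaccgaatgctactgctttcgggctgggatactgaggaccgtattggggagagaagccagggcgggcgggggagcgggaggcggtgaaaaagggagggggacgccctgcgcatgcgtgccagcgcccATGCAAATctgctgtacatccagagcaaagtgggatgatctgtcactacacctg
Searched on both strands, this octamer lies in 1.74% of the 32851 promoter windows of the same length, and the motif was chosen after earlier results on these genes were known. The match is a description of these letters and was not tested for binding.

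Of the other motifs searched, the E-box CAGCTG was in 3 of the 13 windows (1 each of Fgf11, Fgf13 and Fgf14), and in 16.3% of all windows. TATAAA was in 1 window, of Fgf13, and in 13.6% of all. TTCAGCACC, the first part of the site of the neuronal repressor REST, was in 0 of the 13 windows and in 0.371% of all. The 13 windows belong to 6 of the genes, and Scn3a and Scn3b were without an entry in the promoter table.

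Fgf11, Fgf13 and Fgf14, the other FHFs, had differences closer to 0 than the brightest probe set of Fgf12, a comparison that was not tested. Fgf11 read 7.22, 7.54 and 6.60 in ipsilateral and 7.59, 7.93 and 7.18 in contralateral RGCs at 1439959_at. Each ipsilateral array was below its partner, but the rounds lay further apart than the sides and the groups overlapped. The differences of -0.37, -0.40 and -0.58 had a mean of -0.45 (SE 0.42, 95% interval -1.35 to 0.45). At 1421793_at, which targets a RefSeq transcript, Fgf11 differed by 0.02, -0.13 and -0.20, with a mean of -0.10 (SE 0.39). The first probe set minus the second gave -0.39, -0.27 and -0.38 in the 3 rounds.

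Fgf13, an X-linked FHF that also binds microtubules, had both signs. At 1418497_at it read 9.42, 9.30 and 9.08 in ipsilateral and 9.38, 10.07 and 9.46 in contralateral RGCs, with differences of 0.04, -0.77 and -0.38 and a mean of -0.37 (SE 0.40, 95% interval -1.22 to 0.48). At 1418498_at the differences were 0.13, -0.38 and -0.32, with a mean of -0.19 (SE 0.45). Both probe sets had round 1 slightly above 0 and rounds 2 and 3 below it.

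Fgf14, whose product concentrates at the axon initial segment and is mutated in a spinocerebellar ataxia, went in different directions at its 4 probe sets. The brightest, 1458830_at, read 9.38, 9.69 and 9.59 in ipsilateral and 9.41, 10.35 and 9.32 in contralateral RGCs. Round 2 had the higher level on the contralateral side and round 3 on the ipsilateral side, and the mean difference was -0.14 (SE 0.42, 95% interval -1.04 to 0.75). At 1435747_at it was -0.11 (SE 0.40), at 1449958_a_at 0.32 (SE 0.42) and at 1447480_at 0.24 (SE 0.47). At 1449958_a_at the differences were 0.44, 0.59 and -0.08 in rounds 1 to 3. None of the 4 kept 1 sign in all rounds.

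**Figure D2:**
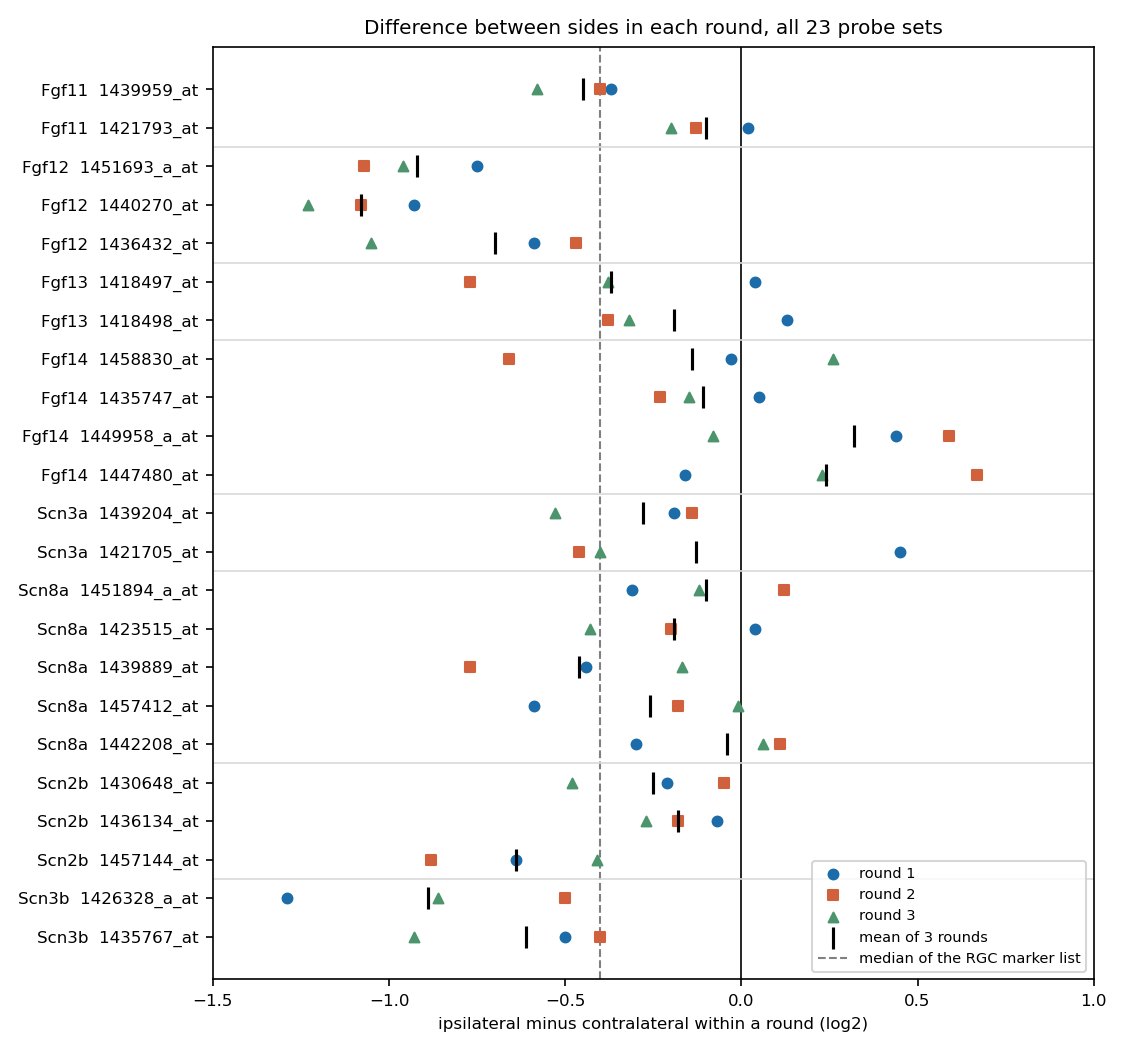
Ipsilateral minus contralateral log2 difference within each round (horizontal axis) for all 23 probe sets, with the mean of 3 rounds as a black tick. The dashed line is the median of 14 RGC marker genes, -0.40. The points of Fgf12, Scn2b and Scn3b all lie left of 0 and those of Fgf14 fall on both sides of it. Most means of the other genes lie between the dashed line and 0.

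Of the alpha subunits, Scn3a read 9.35, 10.21 and 9.25 in ipsilateral and 9.54, 10.35 and 9.78 in contralateral RGCs at its brightest probe set, 1439204_at. The sides overlapped, and round 2 was high on both, as were the medians of its arrays. Less the array median, the round means were 3.64, 3.60 and 3.22. The differences were -0.19, -0.14 and -0.53, with a mean of -0.28 (SE 0.43, 95% interval -1.20 to 0.64). The second probe set, 1421705_at, differed by 0.45, -0.46 and -0.40, with a mean of -0.13 (SE 0.44).

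Scn8a read 8.31, 8.99 and 9.58 in ipsilateral and 8.63, 8.87 and 9.70 in contralateral RGCs at 1451894_a_at. Round 3 was the highest and round 1 the lowest on both sides. Less the array median, the round means were 2.66, 2.25 and 3.35, with round 2 the lowest. The difference was -0.10 (SE 0.46, 95% interval -1.09 to 0.88). The other 4 probe sets had differences from -0.46 to -0.04. The lowest of them was at 1439889_at, with -0.44, -0.77 and -0.17 in rounds 1 to 3 (mean -0.46, SE 0.47). At 1457412_at all 3 rounds were also below 0, with -0.59, -0.18 and -0.01, and at 1423515_at and 1442208_at the sign differed between rounds.

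Of the beta subunits, Scn3b had the larger difference. At 1426328_a_at it read 7.23, 9.71 and 9.30 in ipsilateral and 8.52, 10.22 and 10.16 in contralateral RGCs. Both arrays of round 1 were far below those of rounds 2 and 3, and the groups therefore overlapped although the ipsilateral array was the lower one in each round. The ipsilateral mean was 8.75 ± 1.33 (SD, n = 3) and the contralateral mean 9.63 ± 0.96 (SD, n = 3). The differences were -1.29, -0.50 and -0.86, with a mean of -0.89 (SE 0.63, 95% interval -2.25 to 0.48), or 1.85-fold, and an adjusted p of 1 from limma. With the arrays of a round paired, the SE was 0.19, the 95% interval -1.37 to -0.40 and the adjusted p 0.185 from limma.

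The second probe set of Scn3b, 1435767_at, read 7.71, 9.62 and 9.01 in ipsilateral and 8.22, 10.02 and 9.94 in contralateral RGCs, with the same order of rounds. The differences were -0.50, -0.40 and -0.93, with a mean of -0.61 (SE 0.58, 95% interval -1.85 to 0.63). Without ipsilateral replicate 1 the unpaired difference was -0.13 at the first and -0.08 at the second probe set. Without contralateral replicate 1 it was -1.44 and -1.20.

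Scn2b, which is joined to alpha subunits by a disulfide bond, read 6.95, 8.39 and 7.56 in ipsilateral and 7.17, 8.44 and 8.04 in contralateral RGCs at 1430648_at. Each ipsilateral array was below its partner, by differences of -0.21, -0.05 and -0.48, and the groups overlapped widely (mean -0.25, SE 0.48, 95% interval -1.28 to 0.79). At 1436134_at the mean difference was -0.18 (SE 0.59). The dimmest probe set, 1457144_at, read 5.01, 6.17 and 5.52 in ipsilateral and 5.65, 7.05 and 5.93 in contralateral RGCs, a difference of -0.64 (SE 0.48). All 3 probe sets of Scn2b had a lower ipsilateral value in every round.

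The probe sets of a gene were also set against each other by their differences within rounds, in 26 pairs over the 8 genes. The largest mean gap was 0.47, between 1436134_at and 1457144_at of Scn2b, whose differences were 0.57, 0.70 and 0.14 apart in rounds 1 to 3 (SD 0.29). Neither of these probe sets passed the stricter filter. In 9 of the 26 pairs the gap had 1 sign in all rounds. An exact sign-flip test over 3 rounds cannot go below p = 0.25, and no p is given for the pairs.

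The spread between rounds entered these errors. They come from values not centred on the array medians, so shifts of whole arrays entered them too. After centring on the median of each array, the mean of a round ranged over 1.37 at Scn3b 1426328_a_at and 1.02 at Scn3b 1435767_at. It ranged over 1.24 at Fgf14 1447480_at, 1.19 at Scn2b 1436134_at and 1.09 at Scn8a 1451894_a_at, against 0.15 at Fgf12 1451693_a_at. Round 1 was the lowest for both probe sets of Scn3b. With the replicate block, a fit in which the 2 arrays of a round are paired, limma had 8 of the 23 probe sets higher in contralateral RGCs at an unadjusted p under 0.05, where 6.79% of all probe sets were, and 0 higher in ipsilateral RGCs (7.17%). The 8 were all 3 of Fgf12, both of Scn3b, and 1439959_at of Fgf11, 1439889_at of Scn8a and 1457144_at of Scn2b. The last did not pass the stricter filter. By gene, at the brightest probe set, 3 of the 8 FHF and channel genes met this threshold. So did 7 of the 14 RGC marker genes and 4 of the 8 measured partners of FHFs and channels described below, all higher in contralateral RGCs. Of the 23, 0 were called with the block (0.208% of all probe sets were). The lowest adjusted p values from limma with the block were 0.0877 at 1440270_at and 0.112 at 1451693_a_at, both of Fgf12, and 0.185 at 1426328_a_at of Scn3b. In the same order, the unadjusted p values from limma with the block were 5.03e-04, 0.0011 and 0.005.

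**Figure D3:**
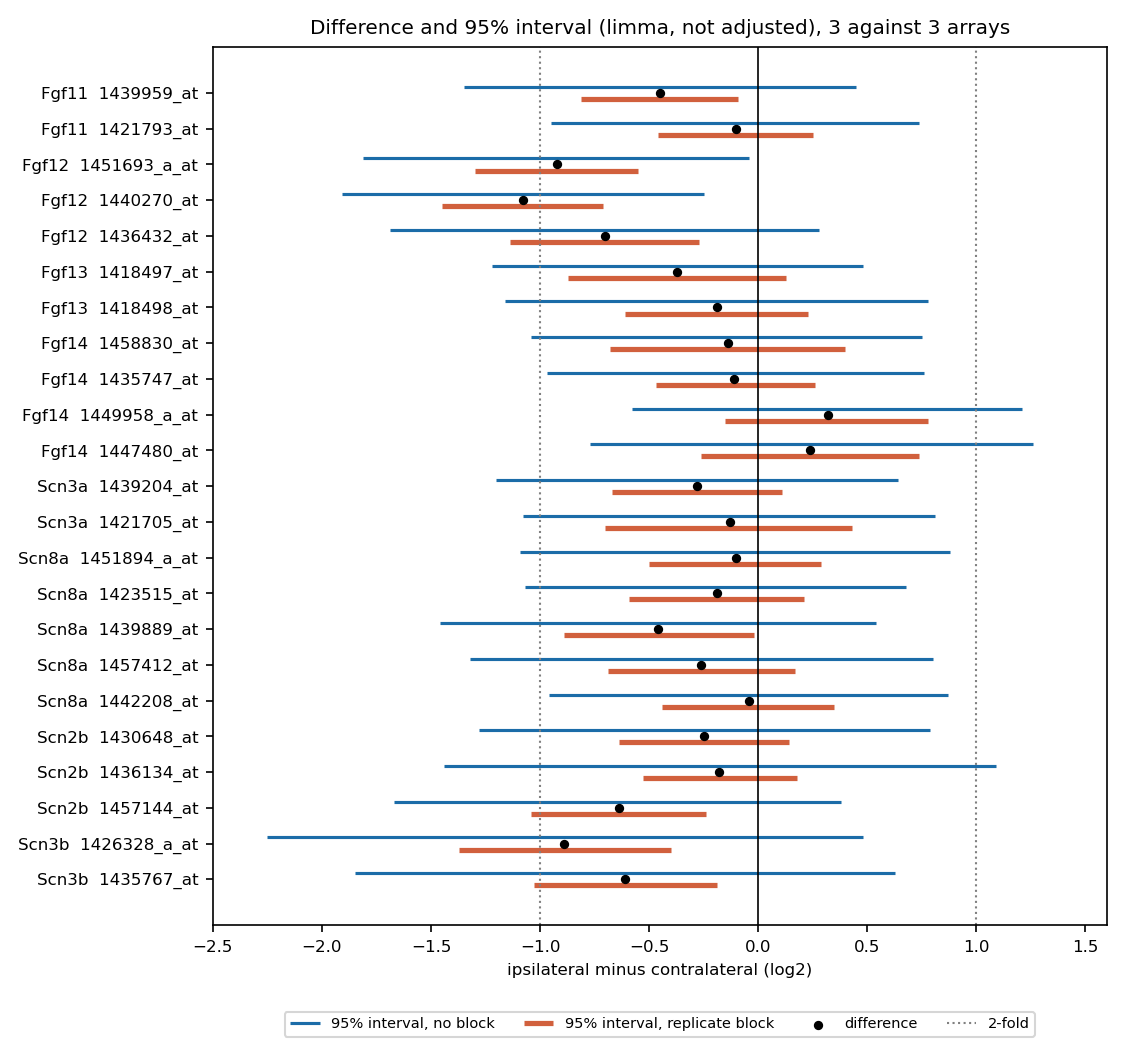
Mean ipsilateral minus contralateral log2 difference (black points) of each of the 23 probe sets with its 95% interval from limma, without (blue) and with (red) the replicate block. Dotted lines mark 2-fold. Without the block, the intervals of Fgf12 at 1451693_a_at (-1.81 to -0.04) and 1440270_at (-1.91 to -0.25) are the only ones that leave out 0, and 8 intervals do so with the block.

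The median difference of the 8 genes, each at its brightest probe set, was -0.33, and in rounds 1 to 3 it was -0.26, -0.45 and -0.50. Over all 15346 genes the median was -0.01, and 0.01, -0.02 and -0.03 by round. The FHFs had a median of -0.41, the alpha subunits -0.19 and the beta subunits -0.57. At the brightest probe set 5 of the 8 genes (Fgf11, Fgf12, Scn3a, Scn2b and Scn3b) had the lower value on the ipsilateral array of all rounds, against 20.2% of all genes. Without ipsilateral replicate 1 the median of the 8 was -0.14, without contralateral replicate 2 it was -0.18, and without ipsilateral replicate 2 it was -0.61. A pair is broken each time, so these medians take in the gap between rounds. No p was computed over the 8 genes, since they were chosen with results of these data known.

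Markers of some other cells moved with the side, and among all genes at their brightest probe set 0.358% were called. Markers of endothelial cells and pericytes had a median difference of 0, of astrocytes 0.08 and of amacrine and horizontal cells 0.2. Some of these markers lay under the array median on every array. The lists ran, in that order, from -0.29 to 1.02, from -0.37 to 1.59 and from -0.31 to 1.34. Those of photoreceptor precursors had a median of 0.9, and in each of these lists 0 were called. Markers of RGCs lay above the filter level on both sides and were lower in ipsilateral samples: all 14 measured of 16 listed were lower in all 3 rounds, with a median difference of -0.40 (-0.28, -0.32 and -0.51 by round) and 0 called. Their summed linear intensity was 44644 to 51833 in ipsilateral and 54223 to 66008 in contralateral RGCs. Markers of microglia and macrophages, of which 12 of 14 were measured, had a median difference of 3.71, with 7 called (C1qb, Csf1r, Ctss, C1qc, Tyrobp, Aif1 and P2ry12; 6 with the replicate block, without P2ry12, adjusted p 0.0675 from limma) and sums of 5819 to 9180 against 336 to 700. In contralateral RGCs 5 of these 12 had a mean under the filter level, among them C1qb, C1qc and Csf1r. Retinal progenitor markers had a median of 1.56, with Sox2 and Sfrp2 called among 11, and sums of 13235 to 25891 against 8126 to 8478. With the replicate block neither was called (adjusted p 0.156 and 0.0629 from limma). Genes of G2 and M phase had a median of 1.74 over 9 genes, with sums of 3678 to 10886 against 1274 to 1446. Their part in the lower levels of FHFs and channels was not tested. In a sorted pool, fewer cells of a type and less RNA per cell cannot be told apart.

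Measured against the median of the RGC markers within each round, most of the 8 genes no longer lay on the contralateral side. With every array centred on the RGC list, an alternative chosen after the data were seen, 8 of 23 probe sets were lower in ipsilateral RGCs, and the median of the 8 genes was 0.08. Fgf12 still had lower differences at all 3 probe sets (-0.52, -0.67 and -0.30), as did Scn3b at both (-0.48 and -0.21). Relative to the RGC median in each round, Fgf12 was at -0.47, -0.75 and -0.44 at 1451693_a_at and at -0.65, -0.76 and -0.72 at 1440270_at. Among the 14 RGC markers, Slc17a6, a vesicular glutamate transporter of RGCs, had the same mean difference (-0.92) as 1451693_a_at at 2 decimals, with -1.21, -0.51 and -1.05 by round, and the others were closer to 0. Scn3b was at -1.01, -0.18 and -0.35 at 1426328_a_at. Fgf11 at 1439959_at was at -0.09, -0.08 and -0.07, close to the RGC median in every round, and Fgf14 was above it in all rounds at 3 of its 4 probe sets.

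The sodium channel subunits outside the 8 genes were listed for comparison, and 8 of 11 were measured. Of these, 0 were called and the median difference was -0.05. In all 3 rounds 2 were lower in ipsilateral RGCs (20.2% of all genes) and 1 was higher (17.6%). Scn7a, Scn10a, Scn11a and Scn4b lay under the array median on every array, so the median difference rests in part on dim probe sets. Scn2a, an alpha subunit of unmyelinated and immature axons, read 9.23, 10.16 and 8.83 in ipsilateral and 10.43, 10.27 and 9.66 in contralateral RGCs, a difference of -0.71 (SE 0.45). Scn9a, an alpha subunit known from pain neurons, differed by -0.17, -0.57 and -0.88 (mean -0.54, SE 0.42). Nalcn, a sodium leak channel, had a mean difference of -0.51 (SE 0.48), with rounds on both sides of 0.

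Genes of the axon initial segment and the node, the places where these channels cluster, had a median difference of -0.17 over 15 of 17 listed genes, with 0 called. Of the 15, 7 were lower in all rounds (20.2% of all genes) and 0 were higher in all (17.6%), where 0.358% of all genes were called. L1cam, a cell adhesion molecule, differed by -0.40 (SE 0.45), and Ank3, the ankyrin that anchors sodium channels at the initial segment, by -0.37 (SE 0.40). Cntn2, an adhesion molecule of axons, had a mean difference of 0.46 (SE 0.50).

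Partners and regulators of FHFs and sodium channels had a median difference of -0.36 over 8 of 12 listed genes, and all 8 had the lower value on the ipsilateral side in each round (20.2% of all genes), with 0 called (0.358%). Mapk8ip2, a scaffold protein of the JNK pathway that binds FHFs, read 10.03, 9.71 and 9.92 in ipsilateral and 10.88, 10.33 and 10.50 in contralateral RGCs. Its sides did not overlap, and the difference was -0.68 (SE 0.39, adjusted p 1 from limma). Mapk8ip1, its relative, differed by -0.45 (SE 0.50) and Camk2d, a calmodulin-dependent kinase subunit, also by -0.45 (SE 0.40). The RGC markers were lower in the same samples (median -0.40).

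Secreted FGFs and FGF receptors, which share the family name of the FHFs but act at the cell surface, did not lie on the contralateral side as a list. Over 21 of 23 listed genes the median difference was 0.06, with 0 called (0.358% of all genes). In all rounds 3 were lower (20.2%) and 4 higher (17.6%), counts near those of all genes. Many were dim: Fgf4, Fgf5, Fgf7, Fgf8, Fgf16, Fgf17, Fgf21, Fgf23 and Fgfr4 lay under the array median on every array. The median difference thus rests in part on dim probe sets. Fgf15, a ligand of retinal progenitors, read 9.44, 9.19 and 11.37 in ipsilateral and 7.92, 6.89 and 7.30 in contralateral RGCs, a difference of 2.63 (SE 0.55, adjusted p 0.0995 from limma). Fgfr2, a receptor, and Fgfrl1, a receptor without a kinase domain, each had a difference of 1.32 (SE 0.42 and 0.43). Every ipsilateral array of these genes lay above every contralateral one. Fgf15 is also among the progenitor markers above, so its value is part of that list's sum.

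**Figure D4:**
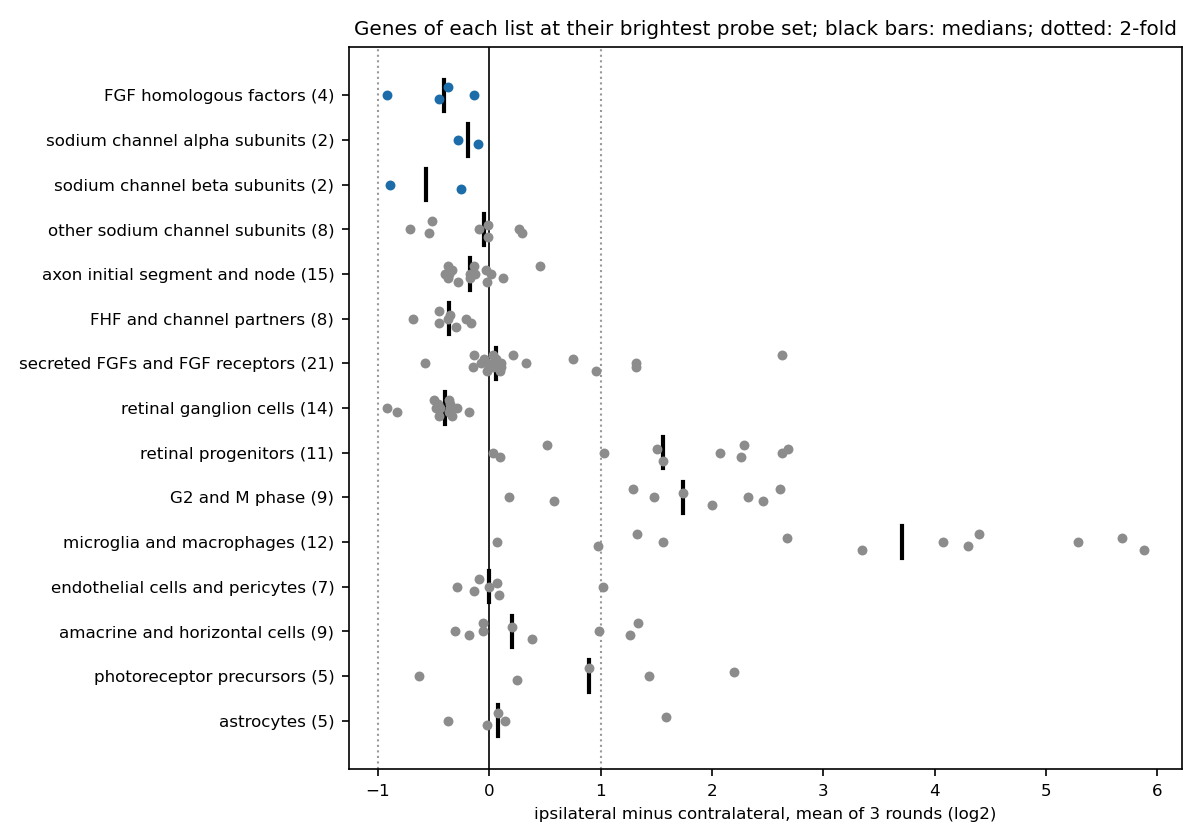
Mean ipsilateral minus contralateral log2 difference over 3 rounds (horizontal axis) of the genes in each list, each gene at its brightest probe set, with the number measured in brackets. Blue points are the 8 FHF and channel genes, grey points are the other lists, black bars are medians and dotted lines mark 2-fold. The blue points lie between -0.92 and -0.10, like most of the RGC markers (median -0.40), while progenitor, G2 and M phase and microglia markers lie mostly right of 1.

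Genes whose pattern over the 6 arrays was most like that of a gene of the 8 were found by root mean square distance, after centring on the median of each array and the mean of each gene. The number of genes within a fixed distance depends on how far a gene itself varies over the arrays. Scn3b, with an SD of 0.86 over the 6 arrays, had 4 genes within 0.25, led by Ano4 (0.13), of a family of calcium-dependent channels and lipid scramblases, and Thy1 (0.15), a surface glycoprotein and RGC marker. Near Fgf12 (SD 0.54) there were 145 genes, led by B930095G15Rik (0.12), Pcyt1b (0.13), an enzyme of phosphatidylcholine synthesis, and Celf6 (0.13), an RNA-binding protein. Near Fgf11 (SD 0.53) there were 141, led by Cep164 (0.10), a centriole protein. Scn3a, Scn8a and Scn2b (SD 0.29, 0.51 and 0.29) had 1388, 1107 and 1624 genes within 0.25, led by Bmyc (0.04), Rhbdf2 (0.04) and Rcor3 (0.05), and Fgf13 and Fgf14 (SD 0.43 and 0.30) had 546 and 896, led by Zfp319 (0.07) and 1500002F19Rik (0.07). These distances rest on 6 arrays and are descriptions.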

How the data were processed

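RGCs of C57BL/6J embryos were labeled, sorted and profiled in 3 rounds as described above. RNA was amplified with the Ovation Pico WTA System and hybridized to Affymetrix Mouse Genome arrays. The deposited values are log2 intensities of probe sets that the authors made with RMA in Affymetrix Expression Console 1.1 (background correction, normalization, summary of probes). Whether the rounds were normalized together is not given in the sources used here. Array medians were 5.81 and 5.80 (ipsilateral and contralateral) in round 1, 6.70 and 6.65 in round 2, and 6.33 and 6.26 in round 3. No count lies behind an intensity, and the number of arrays limits the precision.

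Of 45101 probe sets, 64 controls were left out, and 36029 at or above the 20th percentile of the mean (log2 4.74) were tested two-sided, without a block and with Benjamini-Hochberg adjustment, by lmFit and eBayes of limma 3.58.1 (R 4.3.3). The procedure was tested on simulated data with independent noise in each array. That cannot show how a test without a block behaves where the arrays of a round are paired. In the annotation 34945 probe sets had 1 gene, 932 had several and 9160 were unnamed, and 34741 of the 34945 were found in RefSeq. Lists take the probe set of a gene with the highest mean, called the brightest. The FHF and channel genes, the 15 gene lists and the motifs were chosen with earlier results of these data known. Named genes are the 8, the genes most like each of the 8, and called members of cell type lists. In each FGF, channel, axon and partner list, up to 3 members with the largest difference are named. Also named are FGF and channel list members under the array median on every array. In the RGC list, Slc17a6, Pou4f1 and the genes not measured are named.

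Per the methods, both sides of a round were prepared together, so the replicate numbers pair the samples. As a check, deviations from group means correlated at 0.566, 0.574 and 0.705 between arrays of the same number, and from -0.403 to -0.219 between others. Deviations from a group mean cancel out over its arrays, so the negative values follow from the positive ones and add nothing to the check. The methods name no paired test, so a fit with the replicate block served as an alternative. Errors, intervals and p values given without naming the block ignore the pairing. The median SE was 0.44 without and 0.17 with the block. Other alternatives were filters, scalings, array weights, other thresholds, averaging the probe sets of a gene and leaving out each array. Promoter windows are from RefSeq, GRCm38.p6. Comparisons that the paper itself computed were not used.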

Additional observations from a re-analysis of the deposited data

How the results depend on the processing

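With 0 of the 23 probe sets called, all alternatives but array weights and unadjusted p left that count at 0. With the replicate block, 75 probe sets in place of 88 were called as higher in ipsilateral RGCs, 0 as higher in contralateral RGCs, and the block changed no call among the 23. Of the marker genes named, it ended the calls of Sox2, Sfrp2 and P2ry12. Probe sets called as higher in ipsilateral RGCs numbered 179 with an intensity trend and robust estimation, 1001 with array weights, 261 with array weights fitted gene by gene, 271 with arrays centred on the RGC list, 740 at an unadjusted p with a 2-fold change, and 53 to 220 when 1 array was left out (the highest without ipsilateral replicate 1, and 53 and 56 without the ipsilateral or the contralateral replicate 3). Those called as higher in contralateral RGCs numbered 148 with array weights, 3 with weights gene by gene and 86 at an unadjusted p. Of the 23, 1 was called with array weights and 1 at an unadjusted p with a 2-fold change. Both times it was Fgf12 1440270_at, at -1.20 with array weights (adjusted p 0.0017 from limma, against 0.0877 to 1 over the other alternatives). The other probe sets of Fgf12 had adjusted p values of 0.0131 at 1451693_a_at (-0.96) and 0.0226 at 1436432_at (-0.99) with array weights, under 2-fold. The default estimation of those weights, which ranged from 0.386 to 2.65 and were lowest for both arrays of round 1, did not converge, and the weights gene by gene were added after the data were seen.

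The median of the 8 genes was -0.46 with array weights, 0.08 with arrays centred on the RGC list, and from -0.61 (without ipsilateral replicate 2) to -0.14 (without ipsilateral replicate 1) when 1 array was left out. Array weights turned Fgf14 1458830_at to 0.16, Fgf14 1449958_a_at to -0.01 and Scn8a 1442208_at to 0.05 (0.02 with weights gene by gene). Centring on the RGC list turned 13 probe sets to the ipsilateral side: Fgf11 1421793_at (0.30), Fgf13 1418497_at (0.04) and 1418498_at (0.22), Fgf14 1458830_at (0.27) and 1435747_at (0.30), Scn3a 1439204_at (0.12) and 1421705_at (0.27), Scn8a 1451894_a_at (0.30), 1423515_at (0.21), 1457412_at (0.15) and 1442208_at (0.36), and Scn2b 1430648_at (0.16) and 1436134_at (0.23). Leaving out 1 array, the unpaired difference ran through 0 for Fgf11 1421793_at (-0.25 to 0.06), Fgf13 1418498_at (-0.48 to 0.17), Fgf14 1458830_at (-0.33 to 0.19), 1435747_at (-0.32 to 0.05) and 1447480_at (-0.15 to 0.58), Scn3a 1421705_at (-0.46 to 0.20), Scn8a 1451894_a_at (-0.41 to 0.22), 1423515_at (-0.39 to 0.00), 1457412_at (-0.66 to 0.14) and 1442208_at (-0.25 to 0.28), and Scn2b 1430648_at (-0.63 to 0.09) and 1436134_at (-0.72 to 0.34). Fgf12 and Scn3b stayed lower in ipsilateral RGCs at every probe set in each of these settings. Where 1 array is left out, pairs are broken and the difference takes in the gap between rounds. The cause of the other shifts was not tested.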
